A study of Mus musculus with 15 samples.

Results

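Naïve and memory CD8+ T cells are kept by a small set of transcription factors and surface receptors, and 9 of these genes are described here in antigen-primed mouse cells with and without costimulation: Tcf7, Lef1, Foxo1, Klf2, Bach2, Satb1, Il7r, Ccr7 and S1pr1. They were chosen by symbol, mapped to Ensembl identifiers with GENCODE release M21, and are 9 of 55536 gene identifiers in the count tables. All 9 were among the 24262 genes with enough counts to be tested. In addition, they have 39 annotated transcripts, and 66 of 138940 events of the deposited splicing table lie in 8 of them, with none in S1pr1.

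Naïve splenic T cells of OT-I mice, whose transgenic T cell receptor recognises the ovalbumin peptide SIINFEKL and which are deficient in Rag1 or Rag2, were transferred into wild-type C57BL/6J recipients in both groups. The Ag group (5 libraries) then received the peptide with control rat IgG. The Ag+Costim group (5 libraries) received the peptide with agonist antibodies against the costimulatory receptors OX40 (CD134) and 41BB (CD137). CD8+ CD45.1+ Vα2+ Vβ5+ cells were sorted from spleen and lymph nodes, at day 4 in the labels and somewhat earlier in the study's text. Mice of both sexes and a range of ages from young to adult were used, and neither is given per library. The 5 Naïve libraries of the series, from OT-I mice without transfer, were not analysed here, so all values below are for primed cells only.

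Naïve T cells circulate between blood and lymphoid organs and do not divide. TCF-1 (encoded by Tcf7) and LEF-1 are HMG-box factors that hold the naïve and memory programme and, in their full-length forms, bind β-catenin through their N terminus. FOXO1 is a forkhead factor that Akt signalling sends out of the nucleus, and it drives transcription of Klf2, Il7r and Ccr7. KLF2 in turn drives S1pr1, the receptor by which T cells leave lymph nodes, whereas CCR7 brings them in. BACH2 is a repressor that competes with AP-1 factors at effector genes, SATB1 organises chromatin in thymocytes and T cells, and the IL-7 receptor α chain (Il7r) passes a survival signal through JAK and STAT5 proteins. Priming by antigen is known to lower many of these genes, while cells that stay memory-like keep them.

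The sequences that mark the alternative starts and exons discussed below are given here, 5′ to 3′, because the isoform values refer to them. Tcf7 (chromosome 11, minus strand) and Lef1 (chromosome 3, plus strand) each have a start that gives the full-length coding sequence and another downstream of it. Windows around starts are RefSeq sequence on GRCm38.p6 (mm10), and exon sequences come from GENCODE transcripts of the same build.

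In the first sequence, chr11:52283060-52283209, capitals mark an ATG (first base at 52283179) upstream of where Tcf7-202 is annotated to begin, in frame with the annotated coding sequence, with no stop codon between them. It would add 116 codons to the 303 annotated for both Tcf7 transcripts, giving 419. In the second, chr11:52282554-52282671, capitals mark the 18-base first exon of Tcf7-201, the internal start. The third, chr11:52258853-52258945, is an internal coding exon of 93 bases that was included in part of the Tcf7 mRNA, all of it in capitals.
Tcf7 upstream start: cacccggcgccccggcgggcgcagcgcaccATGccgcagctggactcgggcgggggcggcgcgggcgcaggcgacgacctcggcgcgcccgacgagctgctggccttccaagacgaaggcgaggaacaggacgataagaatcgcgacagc
Tcf7 internal start: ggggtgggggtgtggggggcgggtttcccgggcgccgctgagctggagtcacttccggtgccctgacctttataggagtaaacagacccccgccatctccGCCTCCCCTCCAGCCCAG
Tcf7 93-base exon: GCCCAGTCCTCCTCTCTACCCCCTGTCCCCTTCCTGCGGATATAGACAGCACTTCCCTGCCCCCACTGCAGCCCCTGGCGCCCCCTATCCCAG

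For Lef1, chr3:131111472-131111678 is the coding part of the first exon shared by the long transcripts Lef1-201, Lef1-202 and Lef1-204 (397, 369 and 384 codons), with the start codon in capitals. At chr3:131112697-131112820, capitals mark the 24-base first exon of the short transcript Lef1-203 (331 codons), which lacks that coding part. The Satb1 window, chr17:51826567-51826668 on the minus strand, has in capitals the 22 bases by which a longer start extends a shorter one. For Il7r, chr15:9508707-9508782 on the minus strand is an exon of Il7r-201 whose last 17 bases, in capitals, are absent from Il7r-204.
Lef1 long coding start: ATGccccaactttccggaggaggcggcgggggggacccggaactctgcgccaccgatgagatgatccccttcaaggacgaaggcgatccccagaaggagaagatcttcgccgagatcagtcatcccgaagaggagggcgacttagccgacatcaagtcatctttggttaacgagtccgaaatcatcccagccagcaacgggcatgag
Lef1 short start: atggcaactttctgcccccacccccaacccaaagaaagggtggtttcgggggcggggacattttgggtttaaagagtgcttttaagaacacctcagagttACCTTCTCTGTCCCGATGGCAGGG
Satb1 tandem start: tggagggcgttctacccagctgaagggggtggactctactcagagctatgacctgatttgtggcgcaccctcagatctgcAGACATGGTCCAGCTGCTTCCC
Il7r exon in Il7r-201: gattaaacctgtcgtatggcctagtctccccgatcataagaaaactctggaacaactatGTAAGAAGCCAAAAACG

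RefSeq promoter windows of 300 bases, from 250 before to 50 after a start, were at hand for 7 of the 9 genes (15 windows). The forkhead motif GTAAACA, searched on both strands, was in 1 of the 15, the internal start of Tcf7 shown above, and in 3.65% of all 32851 windows. CTTTGA, the core of the TCF/LEF motif, was in 2 of 15 (in Bach2 and Lef1) and in 16.0% of all windows. The KLF motif CACCC was in 11 of 15 and in 57.5% of all. These are matches of letters, and no binding was measured.

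Library totals lay between 59.6 and 449.4 M estimated counts in Ag (the lowest in Ag replicate 3) and between 332.3 and 639.1 M in Ag+Costim. The number of genes with any count was 48058, 21779, 51778, 40441 and 20714 in Ag replicates 1 to 5, and 28727 to 30340 over the Ag+Costim libraries. The TMM scaling factors were 1.396, 0.909, 1.194, 1.248 and 0.828 in Ag replicates 1 to 5, and 0.890 to 0.932 in Ag+Costim. Ag replicates 1, 3 and 4 were thus above all Ag+Costim libraries in both values, and Ag replicates 2 and 5 below them in the number of genes. The part of this in the results below was not tested. All 8 CD8 T cell markers checked (Cd3d, Cd3e, Cd3g, Cd8a, Cd8b1, Trac, Trbc1 and Cd2) were detected in every group, with Cd8a at 571 ± 135 CPM for Ag and 521 ± 55.7 CPM for Ag+Costim (n = 5 each, SD). Cd4 was at 2.04 ± 1.97 and 0.550 ± 0.356 CPM. Summed over 8 B cell markers, the level was 726 to 1731 CPM in Ag and 651 to 993 CPM in Ag+Costim, and the sum of 7 erythroid and platelet markers reached 1106 CPM in Ag replicate 3 against 3.92 to 126 CPM in the other 9 libraries. None of these marker genes was at 0 in all libraries, and their part in the results below was not tested.

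No gene among the 9 differed between Ag+Costim and Ag at a Benjamini-Hochberg adjusted p under 0.05 in edgeR's quasi-likelihood test. Of all 24262 genes tested, 0.0% were higher and 0.0% lower by the same rule. At an unadjusted p under 0.05, 2 of the 9 (Bach2 and Ccr7) passed, against 18.6% of all genes. Calls were made by other tests, given here with their backgrounds. DESeq2 called Bach2 and Ccr7 lower (2 of 9, with 10.1% of all genes lower and 3.34% higher). With limma voom, 7 of 9 were called lower, all but Klf2 and S1pr1 (25.5% of all genes lower and 25.4% higher). That test gave each library a weight estimated from the counts themselves. The weights were 1.32, 0.0985, 0.508, 1.86 and 0.0654 in Ag replicates 1 to 5 and 1.68 to 3.52 in Ag+Costim, so Ag replicates 2 and 5 counted least. Fold changes depended on the scaling of the libraries. The median of the 8620 genes at 10 CPM or more moved from 0.24 on the log2 scale (TMM) to 0.12 (size factors of DESeq2) and 0.01 (total counts), and relative to that median all 9 genes lay below 0 under each of 4 scalings (median of the 9, -0.56 with TMM and -0.69 with total counts). Against all 24262 genes tested, many of them low, the 9 genes did not stand apart. Their median log2 fold change was -0.33 with TMM against -0.32 over all genes, and Lef1, Klf2 and S1pr1 lay above the median of all genes under each of the 4 scalings.

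**Figure D1:**
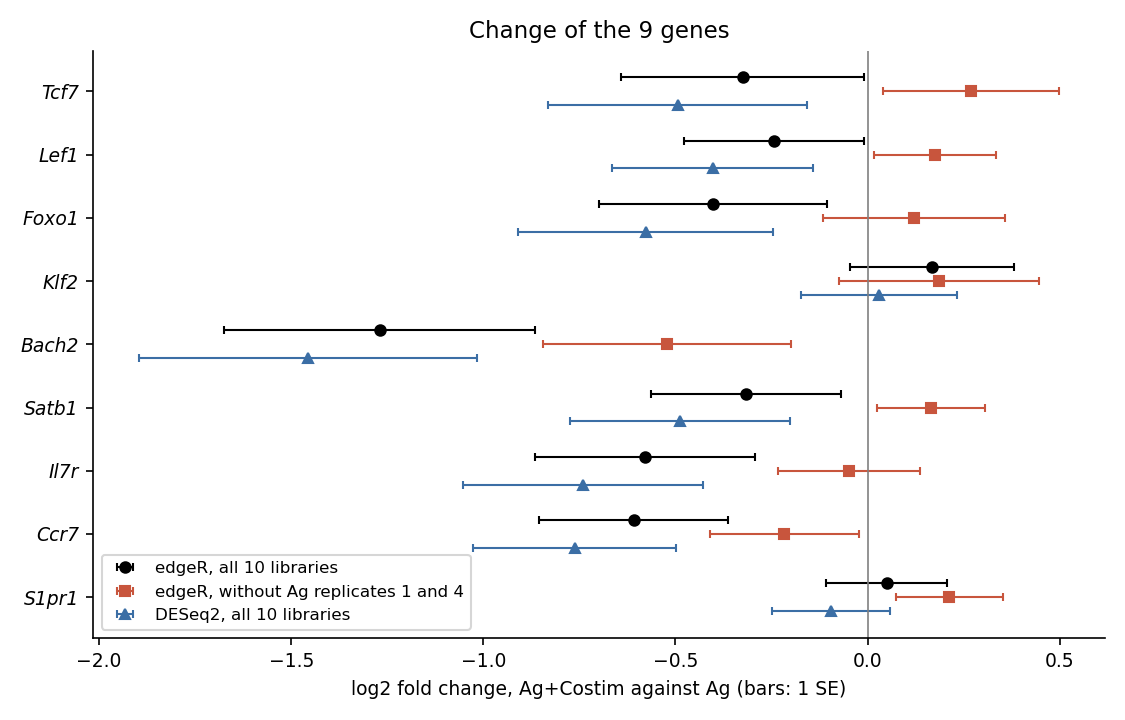
Log2 fold change of each gene, Ag+Costim against Ag, with 1 SE, from edgeR with all 10 libraries (circles), edgeR without Ag replicates 1 and 4 (squares) and DESeq2 (triangles). With all libraries, 7 of 9 genes lie below 0 in edgeR, and without those Ag libraries only Bach2, Il7r and Ccr7 remain below 0.

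The Ag libraries spanned a wider range than the difference between the group means for each of the 9 genes. Ag replicates 1 and 4 held the highest levels of all 10 libraries for 7 of the 9 genes, all but Klf2 and S1pr1, a pattern described after the values were seen. The same libraries were highest for 9.41% of all genes tested. With total counts, size factors of DESeq2 or upper quartile factors in place of TMM, the number was 8 of 9. Ag replicates 2, 3 and 5 lay in or near the range of the Ag+Costim libraries. For none of the 9 genes were the groups free of overlap, whereas of all genes 4.48% were higher and 1.13% lower in Ag+Costim without overlap.

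**Figure D2:**
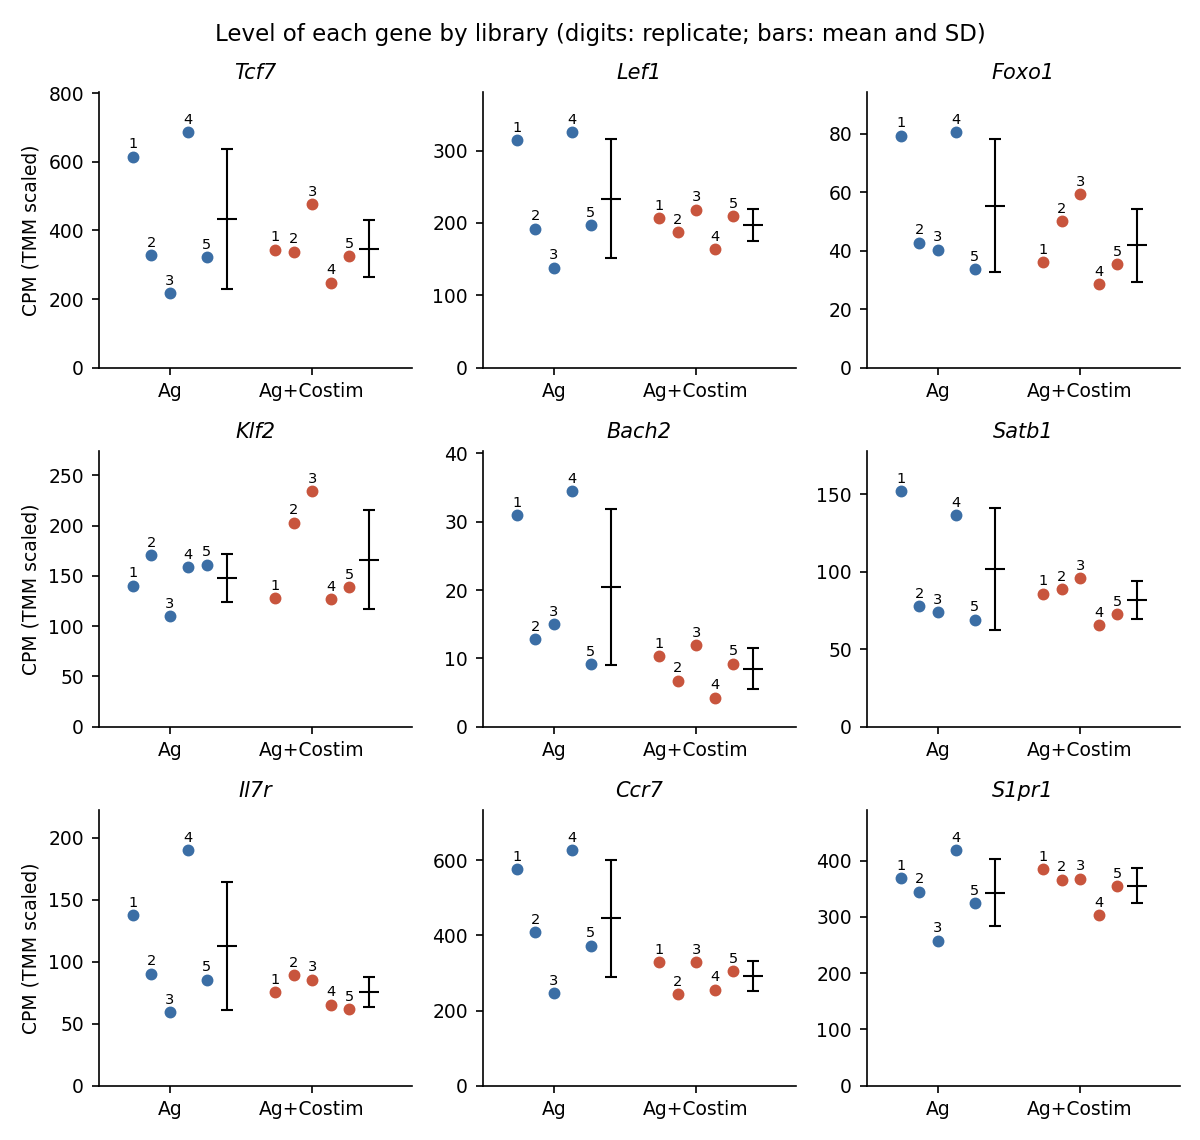
Level of each gene in CPM (TMM scaled) in the 5 Ag and 5 Ag+Costim libraries, with the replicate number over each point and the group mean and SD as bars. Ag replicates 1 and 4 stand above the other 8 libraries in the panels of Tcf7, Lef1, Foxo1, Bach2, Satb1, Il7r and Ccr7, and not in those of Klf2 and S1pr1.

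Among the transcription factors, Tcf7 was at 615, 328, 218, 687 and 323 CPM in Ag replicates 1 to 5 and at 344, 338, 477, 248 and 326 CPM in Ag+Costim replicates 1 to 5. Only Ag replicates 1 and 4 exceeded the highest Ag+Costim library, and the lowest library was also an Ag one. The group means were 434 ± 204 and 346 ± 82.6 CPM (SD, n = 5 each), with a log2 fold change of -0.33 ± 0.32 (SE; adjusted p = 0.521 in edgeR).

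Lef1, the partner of Tcf7 with largely shared targets, had 314, 192, 138, 326 and 197 CPM in Ag and 207, 188, 219, 164 and 209 CPM in Ag+Costim. Its Ag replicates 1 and 4 were again the highest, and the remaining Ag libraries lay in or below the Ag+Costim range. The log2 fold change was -0.24 ± 0.23 (SE; adjusted p = 0.516 in edgeR).

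Foxo1, upstream of most of the receptors here, was at 79.3, 42.7, 40.3, 80.6 and 33.6 CPM in Ag and 36.1, 50.01, 59.3, 28.6 and 35.4 CPM in Ag+Costim. The groups overlapped except for Ag replicates 1 and 4, and the log2 fold change was -0.40 ± 0.30 (SE; adjusted p = 0.405 in edgeR). Klf2, a FOXO1 target and driver of S1pr1, did not follow: it was at 140, 171, 110, 159 and 161 CPM in Ag and 128, 203, 234, 127 and 139 CPM in Ag+Costim, so that its highest libraries were Ag+Costim replicates 3 and 2. Its log2 fold change of 0.17 ± 0.21 (SE; adjusted p = 0.625 in edgeR) turned to -0.10 with total counts and -0.07 with upper quartile factors.

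Bach2 had the largest fold change of the 9 and the lowest level. It was at 31.0, 12.9, 15.04, 34.5 and 9.13 CPM in Ag and 10.3, 6.73, 11.95, 4.26 and 9.24 CPM in Ag+Costim. Here 4 of 5 Ag libraries exceeded the highest Ag+Costim library, and only Ag replicate 5 lay within the Ag+Costim range. Mean levels were 20.5 ± 11.4 and 8.50 ± 3.04 CPM (SD, n = 5 each), and the log2 fold change was -1.27 ± 0.41 (SE; adjusted p = 0.228 in edgeR). DESeq2 gave -1.46 with an adjusted p of 0.0175. Without Ag replicates 1 and 4 the log2 fold change was -0.52 (adjusted p = 0.431 in edgeR), and without Ag replicates 2 and 5 it was -1.56 and passed the threshold (adjusted p = 0.0103 in edgeR), where 30.8% of all genes were called lower.

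Satb1 was at 152, 77.7, 73.8, 137 and 69.0 CPM in Ag and 85.8, 88.6, 95.8, 65.5 and 72.6 CPM in Ag+Costim. Ag replicates 1 and 4 were well above all others, which formed a single range across both groups, and the log2 fold change was -0.32 ± 0.25 (SE; adjusted p = 0.429 in edgeR).

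Of the receptors, Il7r was at 138, 90.5, 59.4, 190 and 85.6 CPM in Ag and 75.6, 89.0, 85.5, 65.3 and 61.7 CPM in Ag+Costim. It was highest in Ag replicate 4 and lowest in Ag replicate 3, on either side of the whole Ag+Costim range. The log2 fold change was -0.58 ± 0.29 (SE; adjusted p = 0.283 in edgeR), and -0.05 without Ag replicates 1 and 4.

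Ccr7 was at 576, 409, 246, 628 and 373 CPM in Ag and 329, 243, 329, 256 and 306 CPM in Ag+Costim. All Ag libraries but replicate 3 were above the highest Ag+Costim library. Mean levels were 446 ± 156 and 293 ± 40.8 CPM (SD, n = 5 each), with a log2 fold change of -0.61 ± 0.25 (SE; adjusted p = 0.260 in edgeR) and of -0.76 in DESeq2 (adjusted p = 0.0379). It fell to -0.22 without Ag replicates 1 and 4, with an adjusted p of 0.562 in edgeR.

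S1pr1, the exit receptor, was the most even of the 9, at 369, 345, 258, 419 and 325 CPM in Ag and 385, 367, 368, 303 and 354 CPM in Ag+Costim. The Ag libraries spanned the Ag+Costim range on both sides. Its log2 fold change was 0.05 ± 0.16 (SE; adjusted p = 0.850 in edgeR) and turned to -0.25 with total counts, -0.20 with upper quartile factors and -0.09 with DESeq2 size factors.

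Relative to the Ag+Costim mean of each gene, the median over the 9 genes was 0.87 in Ag replicate 1 and 0.94 in Ag replicate 4 on the log2 scale, against 0.03, -0.35 and -0.04 in Ag replicates 2, 3 and 5. Ag+Costim libraries lay between -0.32 (replicate 4, below the mean for all 9 genes) and 0.23 (replicate 3, above it for all 9). Cell cycle genes moved the opposite way in Ag replicates 1 and 4, but not in Ag replicate 3, where the 9 genes and the cell cycle genes were both low. The summed level of 15 of them (such as Mki67, Top2a, Mcm5 and Rrm2) was 1044 and 1105 CPM in Ag replicates 1 and 4, 8422, 5198 and 9434 CPM in Ag replicates 2, 3 and 5, and 8340 to 10560 CPM in Ag+Costim. Its part in the levels of the 9 genes was not tested. In bulk samples, fewer cells of a type and less RNA per cell cannot be told apart.

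**Figure D3:**
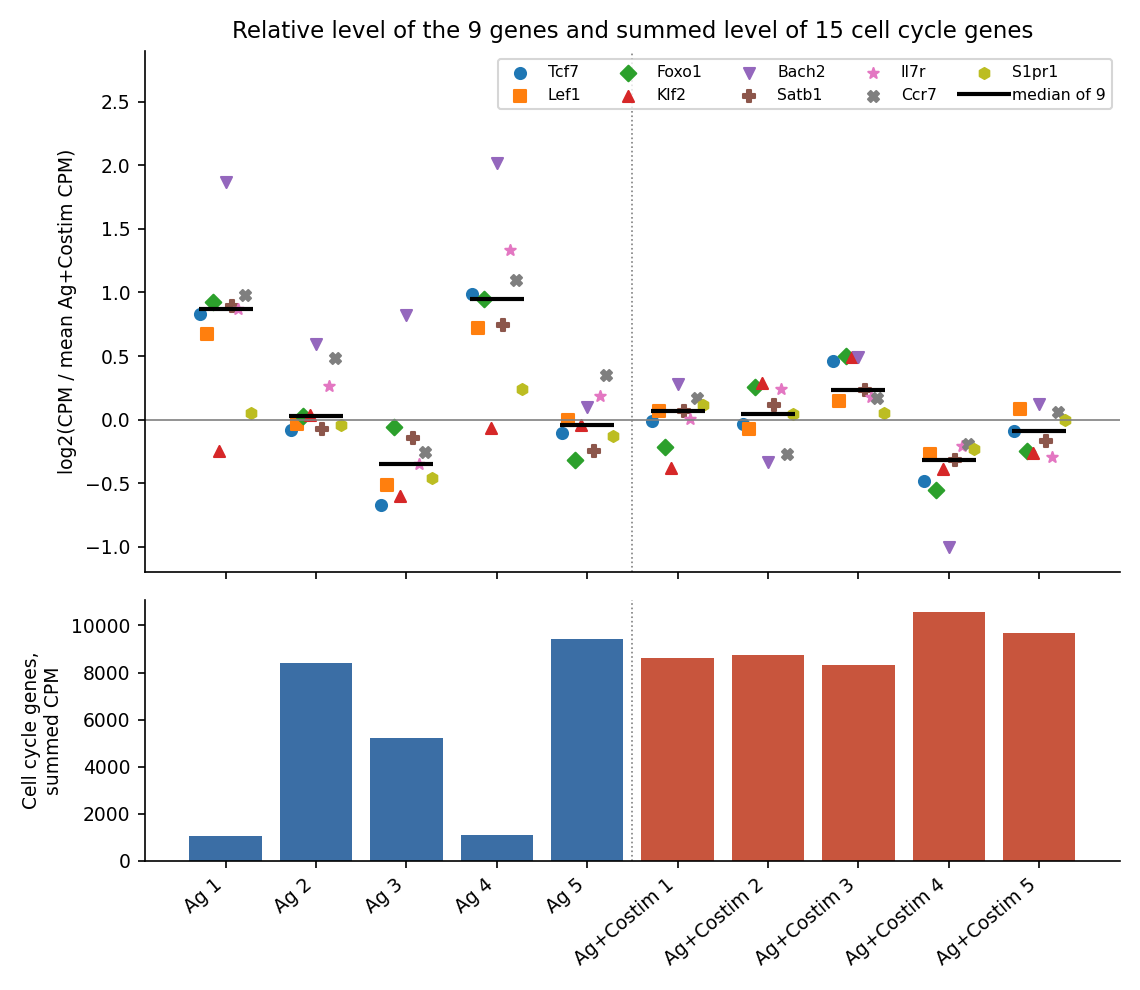
Upper panel, log2 ratio of each gene's CPM to its mean over the Ag+Costim libraries, with the median of the 9 genes as a bar. Lower panel, summed CPM of 15 cell cycle genes. Ag replicates 1 and 4 have the highest medians (0.87 and 0.94) and the lowest cell cycle sums (1044 and 1105 CPM).

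Levels between genes were compared per transcript length, as transcript counts divided by annotated length and scaled to the same total in each library (TPM-like). In Ag+Costim the order was Ccr7 (227 ± 32.4), Tcf7 (218 ± 52.4), S1pr1 (179 ± 17.4), Klf2 (138 ± 41.2) and Lef1 (110 ± 13.6), followed by Il7r (34.6 ± 5.71), Satb1 (23.7 ± 5.05), Foxo1 (7.402 ± 2.21) and Bach2 (1.82 ± 0.522; SD, n = 5 each). Neighbouring genes overlapped in range except for Lef1 above Il7r, Satb1 above Foxo1 and Foxo1 above Bach2. In Ag the order was the same but for Lef1 (147 ± 77.1) and Klf2 (138 ± 31.8), which changed places, and all neighbours overlapped in range. Within single Ag libraries, each gene was above the next in 5 of 5, except Lef1 above Klf2 (2 of 5). In Ag+Costim the exceptions were Ccr7 above Tcf7 (3 of 5), S1pr1 above Klf2 (4 of 5) and Klf2 above Lef1 (3 of 5). The receptors of traffic and Tcf7 were thus at the top of both orders, with Foxo1 and Bach2 at the bottom.

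Other genes of the same pathways were read from lists, and in edgeR 0 genes of each list passed the threshold in either direction. The median log2 fold change was 0.06 for the FOXO and KLF axis (16 of 17 genes tested), 0.16 for the TCF/LEF axis (19 genes), 0.16 for the IL-7 receptor axis (13), 0.21 for trafficking (18), 0.33 for the BACH2 and SATB1 axis (16) and -0.36 for naïve and memory markers (19), against -0.32 over all genes tested. DESeq2 called 4, 4, 2, 3, 2 and 4 of them in that order (3.34% of all genes higher and 10.1% lower). Of these, 1, 2, 2, 2, 1 and 1 were higher in Ag+Costim and the others lower. The value of -0.32 rests on many low genes. Under TMM scaling, the 8620 better expressed genes described above centred on a log2 fold change of 0.24. Only the BACH2 and SATB1 list had a higher median than 0.24, although the lists also hold genes under 10 CPM.

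In the FOXO and KLF axis, Txnip, a regulator of glucose uptake and among the most abundant genes of the list, was at 269 ± 151 CPM for Ag and 167 ± 39.0 CPM for Ag+Costim (n = 5 each, SD). Pik3ip1, an inhibitor of PI3K, had the lowest log2 fold change (-1.67 ± 0.60, SE; adjusted p = 0.245 in edgeR), and the kinase Akt1 the highest (0.61 ± 0.23; adjusted p = 0.251). Ag replicates 1 and 4 were the highest libraries for 6 of these 16 genes, against 9.41% of all genes tested.

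β-catenin itself (Ctnnb1) was at 215 ± 37.5 CPM for Ag and 303 ± 26.3 CPM for Ag+Costim without overlap, with a log2 fold change of 0.49 ± 0.15 (SE; adjusted p = 0.222 in edgeR). By the mean over all 10 libraries it was the most abundant gene of the TCF/LEF list, although Id3 was higher in Ag (312 ± 142 CPM). Ctnnb1 also had the highest fold change of the list. Id3, an inhibitor of E proteins that marks memory precursors, was next in level and had the lowest, at -0.61 ± 0.30 (adjusted p = 0.287).

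In the IL-7 receptor axis, the common γ chain Il2rg (966 ± 218 and 967 ± 54.7 CPM) and the kinase Jak1 (907 ± 77.0 and 1015 ± 105 CPM) were the most abundant. Stat5a, a transcription factor of the same axis, was at 64.2 ± 10.9 CPM for Ag and 96.8 ± 3.82 CPM for Ag+Costim without overlap (log2 fold change 0.59 ± 0.14, SE; adjusted p = 0.153 in edgeR). The survival gene Bcl2 had the lowest value, -0.66 ± 0.33 (adjusted p = 0.288).

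For trafficking, the integrin chain Itgb7 (1340 ± 348 and 1583 ± 43.1 CPM) and the G protein subunit Gnai2 (1058 ± 244 and 1320 ± 26.3 CPM) were the most abundant. The gut homing receptor Ccr9 had the lowest log2 fold change, -3.82 ± 0.92 (SE; adjusted p = 0.157 in edgeR), at 13.2 ± 15.6 CPM for Ag and 0.938 ± 0.451 CPM for Ag+Costim.

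Of the partners and opponents of BACH2 and SATB1, the deacetylase Hdac1 (364 ± 156 and 517 ± 32.9 CPM) and the effector factor Tbx21 (240 ± 148 and 417 ± 40.1 CPM) were the most abundant. Tbx21 was at 74.5, 363, 249, 107 and 404 CPM in Ag replicates 1 to 5, and Hdac1 at 222, 467, 294, 251 and 585 CPM. Both were lowest of all 10 libraries in Ag replicates 1 and 4. The part of these libraries in the group differences was not tested. Irf4, a factor induced by T cell receptor signals, had the highest log2 fold change (0.86 ± 0.25, SE; adjusted p = 0.201 in edgeR) and did not overlap between groups, and Zeb1 had the lowest (-0.30 ± 0.23; adjusted p = 0.4198).

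Among naïve and memory markers, Ag replicates 1 and 4 were the highest libraries for 12 of 19 genes, against 9.41% of all genes tested. The number was 4 of 19 for the TCF/LEF axis and 4 of 13 for the IL-7 receptor axis. For trafficking it was 2 of 18, and for the BACH2 and SATB1 axis 2 of 16. Il2rb, the β chain shared by the IL-2 and IL-15 receptors, was the most abundant naïve and memory marker (905 ± 196 and 1329 ± 81.1 CPM), followed by Ly6c2 (767 ± 474 and 850 ± 126 CPM). Ly6c2 was lowest of all libraries in Ag replicates 1 and 4 (308 and 301 CPM), as was Il2ra (1.52 and 2.11 CPM). Il2rb was lowest in Ag replicates 1 and 3 (651 and 810 CPM). Igfbp4 had the lowest log2 fold change (-2.44 ± 0.73, SE; adjusted p = 0.214 in edgeR) and Il2ra, the inducible IL-2 receptor chain, the highest (1.38 ± 0.79; adjusted p = 0.317).

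The genes most like each of the 9 over the 10 libraries were taken from 8620 genes at 10 CPM or more, by Pearson correlation of log2(CPM + 1). These values share libraries and scaling, so they describe likeness only. For Tcf7 they were Rab37 (r = 0.989), Irf2bp2 (0.987) and Evl (0.982), and for Lef1 Dgka (0.977), Orai2 (0.974) and Cep164 (0.972). Foxo1 was most like Ifi208 (0.985), Ifit3 (0.983) and Rasa1 (0.982).

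Klf2 had weaker likeness, to Grk6 (0.9501), Suds3 (0.939) and Lrrc47 (0.932). Bach2 was nearest to Zfp113 (0.976), Etfbkmt (0.970) and Fbxo32 (0.967), and Satb1 to Gbp9 (0.985), Apol7e (0.977) and Uba7 (0.976).

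For the receptors, Il7r was nearest to Samhd1 (0.988), Dlgap4 (0.975) and Ccdc28b (0.974), and S1pr1 to Crot (0.975), Stk25 (0.964) and Slc44a2 (0.962). Ccr7 was nearest to Trav14-3 (0.976), Trav14n-1 (0.973) and Ubxn6 (0.969). The first 2 of these are T cell receptor α variable segments of near-identical sequence, so the split of reads between them is uncertain.

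Transcript usage was tested for the 5 of 9 genes with several annotated transcripts past a count filter (Tcf7, Lef1, Bach2, Satb1 and Il7r), and 0 passed a gene-level adjusted p under 0.05 with a share change over 0.1 in edgeR's diffSpliceDGE. Of all 10442 genes tested, 0.278% passed, and 677 had an unadjusted p under 0.05. The lowest p of the 5 was that of Lef1, 0.323 before and 1 after adjustment. With limma's diffSplice the count was also 0.

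Lef1 nevertheless had a share that differed between groups when its transcripts were read as long or short. Long transcripts made up 85.8, 76.1, 79.4, 85.3 and 74.3% of coding Lef1 counts in Ag replicates 1 to 5, and 63.8, 61.4, 71.3, 75.2 and 60.8% in Ag+Costim replicates 1 to 5. Apart from Ag+Costim replicate 4, which lay above Ag replicate 5, all Ag+Costim libraries were below all Ag libraries. The means were 80.2 ± 5.21% and 66.5 ± 6.41% (SD, n = 5 each), a difference of -13.7 percentage points (two-sided exact permutation test, p = 0.0159; 0.0317 adjusted over the 2 shares tested, this and that of Tcf7). The smallest p that 5 libraries against 5 allow is 0.0079. Coding Lef1 counts were 9067 to 131474 per library.

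Counts per length gave 72.9 ± 6.50% and 56.9 ± 7.13%, with the same exact p of 0.0159 (n = 5 each). Ag replicates 1 and 4 had the highest long shares as well as the highest levels, and leaving out either of them alone gave an adjusted p of 0.0635 over the 2 shares in the exact permutation test. Without both, the difference was -10.1 percentage points with an exact p of 0.0536, where 56 assignments allow values down to 0.0179. Nearly all of the difference lay between Lef1-201 (68.7 ± 5.33% of all Lef1 counts in Ag, 56.5 ± 7.49% in Ag+Costim) and the short Lef1-203 (18.6 ± 5.17% and 31.95 ± 6.04%). Lef1-202 and Lef1-204, long transcripts with fewer coding exons, were at 1.86 and 4.37% in Ag and 2.45 and 4.43% in Ag+Costim.

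**Figure D4:**
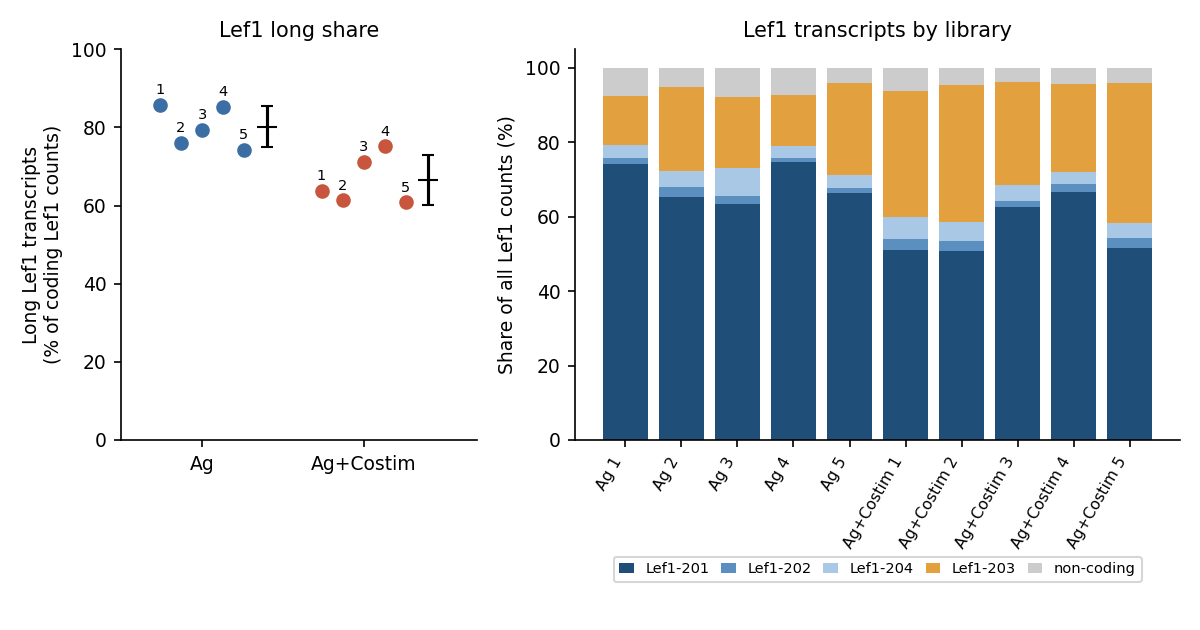
Left, share of coding Lef1 counts on the long transcripts in each library, with the replicate number over each point and the mean and SD as bars. Right, share of each transcript in all Lef1 counts, with long transcripts in blue, the short Lef1-203 in orange and non-coding transcripts in grey. The short form takes 13.1 to 24.6% in Ag and 23.8 to 37.6% in Ag+Costim.

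The authors' pooled PSI (percent spliced in, from 0 to 1, with 1 value per group) gave the 24-base first exon of Lef1-203, shown in capitals above, 0.405 in Ag and 0.474 in Ag+Costim. Whippet's probability of a difference was 0.811, under the threshold of 0.9. The count share and the PSI thus both put the short start higher in Ag+Costim, on different scales. The other 10 Lef1 events were core exons with a PSI of at least 0.936 in both groups.

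For Tcf7, the annotation gives both transcripts the same coding sequence of 303 codons, so no long and short shares could be formed. In their place, the share of counts on Tcf7-202, which begins at the upstream start, was 1.86, 2.67, 2.31, 2.36 and 3.06% in Ag replicates 1 to 5 and 2.197, 3.38, 3.45, 2.89 and 2.95% in Ag+Costim. The groups overlapped (2.45 ± 0.446% and 2.97 ± 0.501%, SD, n = 5 each; two-sided exact permutation test, p = 0.135). PSI gave another picture of the same start. The 18-base first exon of Tcf7-201 was at 0.535 for Ag against 0.499 for Ag+Costim (probability 0.664), while counts put 97.6% and 97.0% on Tcf7-201.

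The annotated 3′ ends of the transcripts also differ. Tcf7-202 stops 865 bases before Tcf7-201, and the PSI of those 865 bases was listed at 1 in both groups, an end that only Tcf7-201 has. The part of this in the low counts of Tcf7-202 was not tested. The 93-base coding exon shown above was included at 0.569 for Ag against 0.519 for Ag+Costim, the largest PSI difference of Tcf7 (probability 0.778), and the other 8 core exons were above 0.99.

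Satb1 held the only events of the 9 genes past both thresholds (probability over 0.9 and a PSI difference over 0.05), 2 of 66, where 1.05% of all 138940 events passed. Both belong to the same pair of tandem starts. The 22 bases of the longer start (chr17:51826567-51826588, in capitals above) were included at 0.756 for Ag against 0.113 for Ag+Costim (PSI; probability 0.998). The 133 bases that follow (chr17:51826434-51826566) went from 0.242 to 0.883 (probability 0.999). They report 1 choice, since the values of a pair of nested starts sum to about 1, and they are in a first exon that holds no coding sequence.

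Transcript counts did not follow the PSI at that choice. Satb1-213, which starts with those 22 bases, held 6.30, 22.03, 1.93, 2.098 and 26.1% of Satb1 counts in Ag and 19.3, 14.2, 10.7, 15.5 and 27.1% in Ag+Costim. Ag libraries spread on both sides of most Ag+Costim libraries. Satb1-203, which starts at the shorter end, had no count in any library. The leading transcript, Satb1-208, had 63.0 ± 10.6% for Ag and 55.7 ± 18.0% for Ag+Costim (SD, n = 5 each), and its first exon had a PSI of 0.940 and 0.796 (probability 0.854). Another pair of tandem starts (0.475 to 0.543 and 0.522 to 0.458) and an acceptor of 3 bases (0.770 to 0.660) differed with probabilities of 0.548, 0.571 and 0.833. All 4 Satb1 transcripts with more than 3% of the counts encode the same 764 codons. Satb1-207, annotated with 12 exons and 795 codons, held 1.77 ± 0.822% for Ag and 1.84 ± 0.208% for Ag+Costim (SD, n = 5 each).

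**Figure D5:**
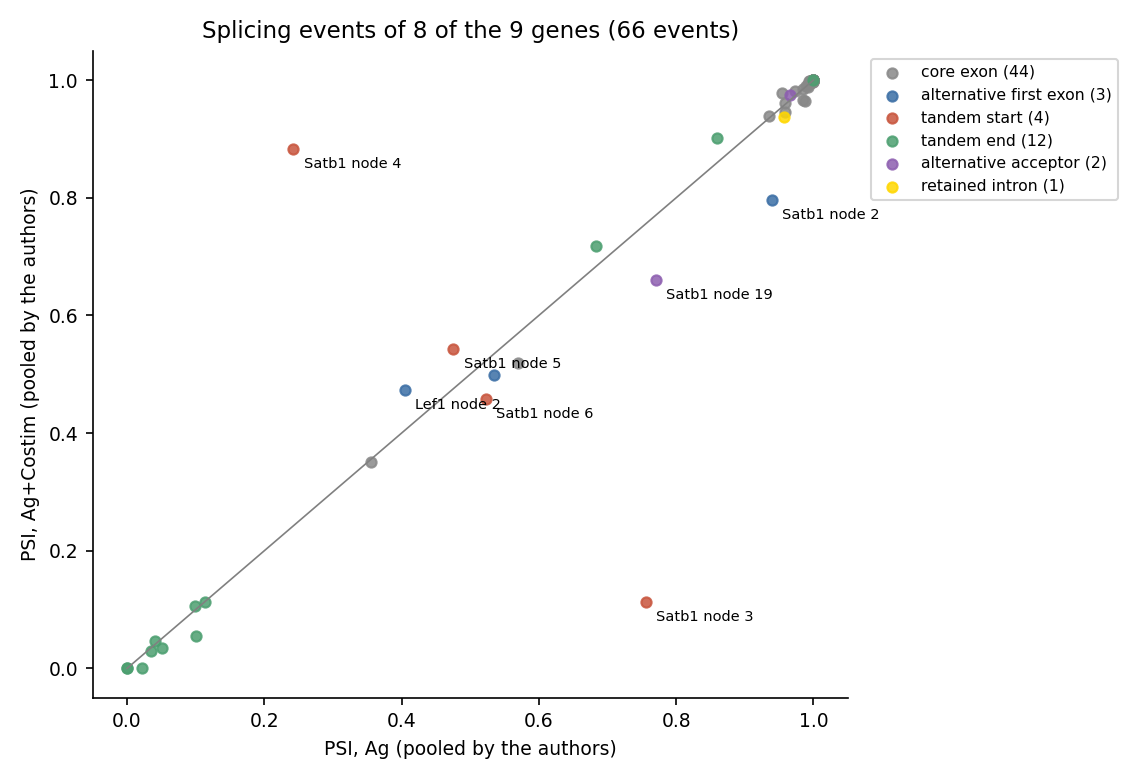
PSI of the 66 events in 8 genes, Ag on the horizontal and Ag+Costim on the vertical axis, each 1 value per group as pooled by the authors, coloured by event type, with the line of equal values. Events with a difference over 0.06 are named, and the tandem starts of Satb1 (nodes 3 and 4) lie far from the line.

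Of the 44 core exons of these genes, 42 had a PSI above 0.9 in both groups. The exceptions were the Tcf7 exon above and a 96-base Satb1 exon at 0.355 in Ag and 0.351 in Ag+Costim. Elsewhere the largest PSI difference was -0.0459 in Bach2, at a tandem end of 4 bases (0.101 and 0.0553; probability 0.744), and -0.00269 in Il7r, with smaller sizes in Foxo1, Klf2 and Ccr7.

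For Il7r, counts moved between 2 coding transcripts from library to library. Il7r-201 (459 codons) held 10.2, 80.2, 11.4, 78.9 and 81.3% of Il7r counts in Ag and 79.6, 10.5, 81.2, 83.7 and 76.1% in Ag+Costim. Il7r-204 (286 codons) took most of the rest, 83.9, 14.3, 79.3, 16.5 and 14.6% in Ag and 15.4, 87.0, 16.1, 13.7 and 20.3% in Ag+Costim. Libraries fell near 1 of 2 values, with Ag replicates 1 and 3 and Ag+Costim replicate 2 on the side of Il7r-204. The transcripts differ by the 17 bases shown in capitals above and by 7 bases at the start, and the splicing table lists the exon whole, at 0.998 for Ag against 0.999 for Ag+Costim.

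Bach2 counts likewise shifted between transcripts of the same 839 codons and different starts. Bach2-202 held 91.3, 12.7, 0, 67.6 and 35.7% in Ag and 64.8, 19.4, 17.8, 27.6 and 98.2% in Ag+Costim, and Bach2-207 held 6.56, 86.9, 96.0, 30.8 and 64.2% in Ag and 34.3, 78.8, 81.2, 68.9 and 1.08% in Ag+Costim. Neither followed the groups. Foxo1, Klf2, Ccr7 and S1pr1 each have 1 annotated transcript, and for these 4 genes the splicing table held 1 event or none.

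Some counts could be shared with overlapping genes, since the library kit does not mark strand. Tcf7, Lef1, Foxo1, Bach2 and Satb1 overlap other annotated genes (2, 2, 2, 3 and 6), on either strand, and their counts are uncertain to that extent. Klf2, Il7r, Ccr7 and S1pr1 overlap none.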

How the data were processed

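Gene and transcript counts of 10 libraries (5 Ag, 5 Ag+Costim) and a splicing table were used. The authors aligned reads to mm10 with HISAT2 2.1.0, sorted them with SAMtools 1.9 and obtained counts with StringTie 2.1.0 (versions from the submitters' processing notes). The deposited values are estimated counts, derived from coverage and rounded, with no normalization, so library totals (59.6 to 639.1 M) are not numbers of reads. The authors ran Whippet on the raw reads. Their deposited table holds 1 PSI fraction per event and group, and 2 scores, the PSI difference and the probability of a difference, which is not a p-value. No test over libraries could be made on it.

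All 55536 gene and 141862 transcript identifiers matched GENCODE release M21, and entries that name no gene (0.0603% of counts) were left out. Coordinates are mm10. Genes were tested on the whole table with edgeR's quasi-likelihood test (edgeR 4.0.16 in R 4.3.3; genes kept by filterByExpr with the group, TMM scaling), with Benjamini-Hochberg adjustment and a threshold of 0.05, beside DESeq2 1.42.0 on the same genes and limma 3.58.1. CPM values were scaled with TMM factors. Transcript usage was tested with diffSpliceDGE on transcripts with 10 counts or more in 5 libraries. Shares were compared with a two-sided exact permutation test. Both count tests were checked on simulated counts with known, large changes. These had the same spread for every gene and no outlying libraries, so the check does not measure power in these data. The study gives 5 mice per group for these libraries, while the labels do not tie a library to an animal, so p-values measure the spread between these samples.

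The 9 genes, the lists and the rules for naming genes were chosen with earlier results of these data known. From each list, the text names the 2 most abundant genes, and the highest and lowest fold change among genes whose higher group reached 10 CPM. Some genes that this rule names are not reported here. It also names the 3 genes most like each of the 9, the leading transcripts, and the events with the largest PSI difference or past the thresholds. The planned long share of Tcf7 could not be formed because its transcripts share a coding start, and a start share took its place. Alternatives were other scalings, no count filter, DESeq2, limma, left-out libraries and a replicate block. Naïve counts and a sheet of library concentrations were not used here.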

Additional observations from a re-analysis of the deposited data

Results flagged for a closer look

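In 38 groups of 5 libraries checked for a value far from the rest (the CPM of the 9 genes, 9 transcript shares and the Lef1 long share, each in Ag and in Ag+Costim), 2 stood out, about the number that chance gives at 1 in 20. Both are the same library and gene. In Ag+Costim replicate 2, Il7r-201 held 10.5% of Il7r counts and Il7r-204 held 87.0%, whereas the other 4 Ag+Costim libraries had 76.1 to 83.7% and 13.7 to 20.3%. The level of Il7r in that library, 89.0 CPM, was within the range of its group.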

How the results depend on the processing

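The number of the 9 genes past the threshold was 0 in edgeR with all libraries, 2 in DESeq2, 7 in limma with quality weights (weights of 0.0654 and 0.0985 for Ag replicates 5 and 2, 1.32 to 3.52 for 7 others and 0.508 for Ag replicate 3) and 1 in edgeR without Ag replicates 2 and 5, where 48.8% of all genes tested passed. It stayed at 0 in the other edgeR settings, with any 1 library left out (0 to 0), and without Ag replicates 1 and 4, a setting chosen after seeing the data, in edgeR and in DESeq2.

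Directions turned as follows, on the log2 scale. S1pr1 was at -0.095 with DESeq2 size factors and in DESeq2, -0.246 with total counts, -0.198 with upper quartile factors, -0.068 in limma and -0.034 to 0.14 with 1 library left out, the lowest without Ag replicate 3. Klf2 was at -0.096 with total counts and -0.073 with upper quartile factors, and Lef1 at 0.003 with no filter. Without Ag replicates 1 and 4, Tcf7, Lef1, Foxo1 and Satb1 were at 0.269, 0.175, 0.12 and 0.166 in edgeR and at 0.199, 0.103, 0.028 and 0.077 in DESeq2. The cause of these turns was not tested. With 1 library left out, the lowest sizes of change came without Ag replicate 4 for Tcf7 (-0.09), Lef1 (-0.086), Foxo1 (-0.218), Il7r (-0.299), Bach2 (-0.99) and Ccr7 (-0.446), and without Ag replicate 1 for Satb1 (-0.117). Klf2 lay between 0.03 and 0.27.

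The Lef1 long share differed by -15.9 to -12.3 percentage points with 1 library left out (exact p = 0.00794 to 0.0318). Adjusted over the 2 shares, it was no longer past the threshold without Ag replicate 1 or without Ag replicate 4 (0.0635 each), or without Ag replicates 2 and 5 (0.0714). It was -10.1 without Ag replicates 1 and 4 (exact p = 0.0536). With the replicate number as a block the difference was -13.7, with a p of 0.0625 in an exact sign-flip test, the smallest that 32 assignments can give. The block left 0 of the 9 genes called and 0 with changed usage. Deviations of libraries with the same number correlated at -0.303 to 0.251 across 8620 genes, so the number was not taken to pair them, and no library pairing is given by the labels. The Tcf7 start share lay between 0.376 and 0.718 percentage points with 1 library left out (exact p = 0.0476 without Ag+Costim replicate 1). Usage calls stayed at 0 in all 14 alternatives, and the number of splicing events at 2 in both stricter settings. The alternatives planned for the long share of Tcf7 were not run, since that share could not be formed. PSI values have no depth or replicates, and Ag replicate 3, with 59.6 M counts, gives the least precise counts.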
